A study of Mus musculus with 4 samples.

Results

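The HOX genes are transcription factor genes that lie side by side in clusters and carry a homeobox, the stretch that encodes the DNA-binding homeodomain. In blood formation, HOX proteins bind DNA together with the cofactors MEIS and PBX, which belong to a related class of homeodomain proteins called TALE. Genes of the HOXA and HOXB clusters are known to be most active in stem cells and early progenitors and to be turned down as cells commit to a lineage, and sustained activity of Hoxa9 with Meis1 is a known feature of some leukemias. Described here are 8 of the 32285 genes in the deposited count matrix, chosen by symbol: Hoxa5, Hoxa7, Hoxa9 and Hoxa10 of the HOXA cluster, Hoxb2, Hoxb4 and Hoxb5 of the HOXB cluster, and the cofactor gene Meis1. All 8 symbols were found.

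The cells were donor-derived (CD45.2) hematopoietic stem and progenitor cells (HSPCs) of C57BL/6 background, sorted from bone marrow 20 weeks after competitive transplantation, in which test and competitor marrow share a recipient. The labels list 2 samples with wild-type cells and 2 with Srcap mutant cells, heterozygous per the study's design, with 20000 sorted cells per sample entering droplet capture for 3' single-cell RNA sequencing. Srcap encodes the ATPase of a chromatin remodeller that deposits the histone variant H2A.Z; the change in the mutant allele, and whether recipients were pooled, are not given in the sources used here. The barcodes carry 4 suffixes, called library 1 to library 4 here, which the labels do not tie to samples. Mutant and wild-type cells therefore could not be compared, and values are given for each library or by their median and extremes, without p-values. The 41122 kept cells had a median of 9824 to 10226.5 UMIs (unique molecular identifiers, each counting 1 captured transcript) per cell in the 4 libraries, and 357 of them (0.868%) carried a barcode that also occurs in another library.

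Cell types were gated from marker genes, with no HOX gene and no Meis1 among the markers. A cell entered a gate when at least 3 of its markers had at least 2 UMIs each. The stem cell gate rested on Procr, Slamf1, Fgd5, Ctnnal1, Hlf and Mecom, required that no UMI of Flt3 or Cd48 be present, and held 1323 cells, 194 to 538 per library, or 1.56% to 5.96% of a library. Of these cells 1139 had exactly 3 of the 6 markers, and 3857 cells without Flt3 and Cd48 UMIs fell 1 marker short. Uncommitted progenitors (2662 cells) had Kit, Cd34 and Cd48 and met no other gate. Lymphoid-primed progenitors (2985 cells) had markers such as Flt3 and Dntt, neutrophil precursors (3764 cells) Elane and Mpo, megakaryocyte progenitors (788 cells) Pf4 and Itga2b, and erythroid progenitors (270 cells) Klf1 and Epor. No gate took 55.1% of the kept cells. Levels are CPM, the UMI count of a gene scaled to the total UMIs of all cells of a gate in a library.

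The 4 HOXA members lie within 52201754 to 52240854 of chromosome 6 on the reverse strand, and Hoxb5, Hoxb4 and Hoxb2 follow one another from 96303336 to 96354012 of chromosome 11 on the forward strand. Meis1 lies elsewhere on chromosome 11, from 18879817 to 19018985 on the reverse strand (all positions GRCm38, GENCODE). Hoxa5 and Hoxb5 both belong to paralog group 5, genes of different clusters that descend from one ancestral gene. The deposited counts come from the 3' end of transcripts.

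The 250 bases before a start site are given for 1 gene of each of the 3 loci (RefSeq windows, GRCm38.p6), to show the sequence at the start of a member from each locus. CCAAT, on either strand, is in capitals. The Hoxa5 window is chr6:52204588-52204837 (reverse strand), the Hoxb4 window chr11:96318017-96318266 (forward strand) and the Meis1 window chr11:19018970-19019219 (reverse strand).
Hoxa5: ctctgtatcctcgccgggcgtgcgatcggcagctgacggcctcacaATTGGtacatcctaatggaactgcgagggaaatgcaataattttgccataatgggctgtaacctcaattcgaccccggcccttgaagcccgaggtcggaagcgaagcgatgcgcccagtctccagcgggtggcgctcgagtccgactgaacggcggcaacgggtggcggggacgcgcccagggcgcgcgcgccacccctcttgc
Hoxb4: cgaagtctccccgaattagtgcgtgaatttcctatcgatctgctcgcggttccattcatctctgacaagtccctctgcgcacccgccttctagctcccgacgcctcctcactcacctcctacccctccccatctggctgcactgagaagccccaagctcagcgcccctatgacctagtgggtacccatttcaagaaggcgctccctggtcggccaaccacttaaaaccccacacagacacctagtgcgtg
Meis1: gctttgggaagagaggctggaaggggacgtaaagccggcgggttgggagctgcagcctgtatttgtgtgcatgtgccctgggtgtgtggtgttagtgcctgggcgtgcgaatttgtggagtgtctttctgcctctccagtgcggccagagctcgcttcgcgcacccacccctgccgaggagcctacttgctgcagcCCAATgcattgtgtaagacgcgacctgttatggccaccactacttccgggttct
A promoter entry was found for 6 of the 8 members, with 7 windows in all. Searched on both strands, the MEIS core TGACAG and the PBX-HOX composite TGATTNAT occurred in none of the 7 windows, against 15.9% and 2.82% of all 32851 windows of that length. CCAAT occurred in the windows of Hoxa5 and Meis1 and in 1 of 2 of Hoxa10, against 33.8% of all windows. Since only CCAAT was found, no matches overlap, and the absence of these letters says nothing about the factors.

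The members fell into 3 patterns over the 14 gates that had at least 20 cells in each library. Hoxb2, Hoxb4, Hoxb5 and Hoxa10 had their highest level in the stem cell gate, with 4 library values above all 4 values of the gate next in order. Hoxb4 still overlapped mature B cells, which were at 0 to 28.2 CPM from 0 to 4 UMIs in a library. The share of all genes separated in this way is not given here. Hoxa5 and Meis1 also had their highest median in stem cells, but with values that overlapped the next gate. Hoxa7 and Hoxa9 were highest outside the stem cell gate and were held through early progenitors and into the lymphoid path. Most neighbours in the order of a gene's levels overlapped: 10 to 13 of 13 neighbouring pairs per gene.

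**Figure D1:**
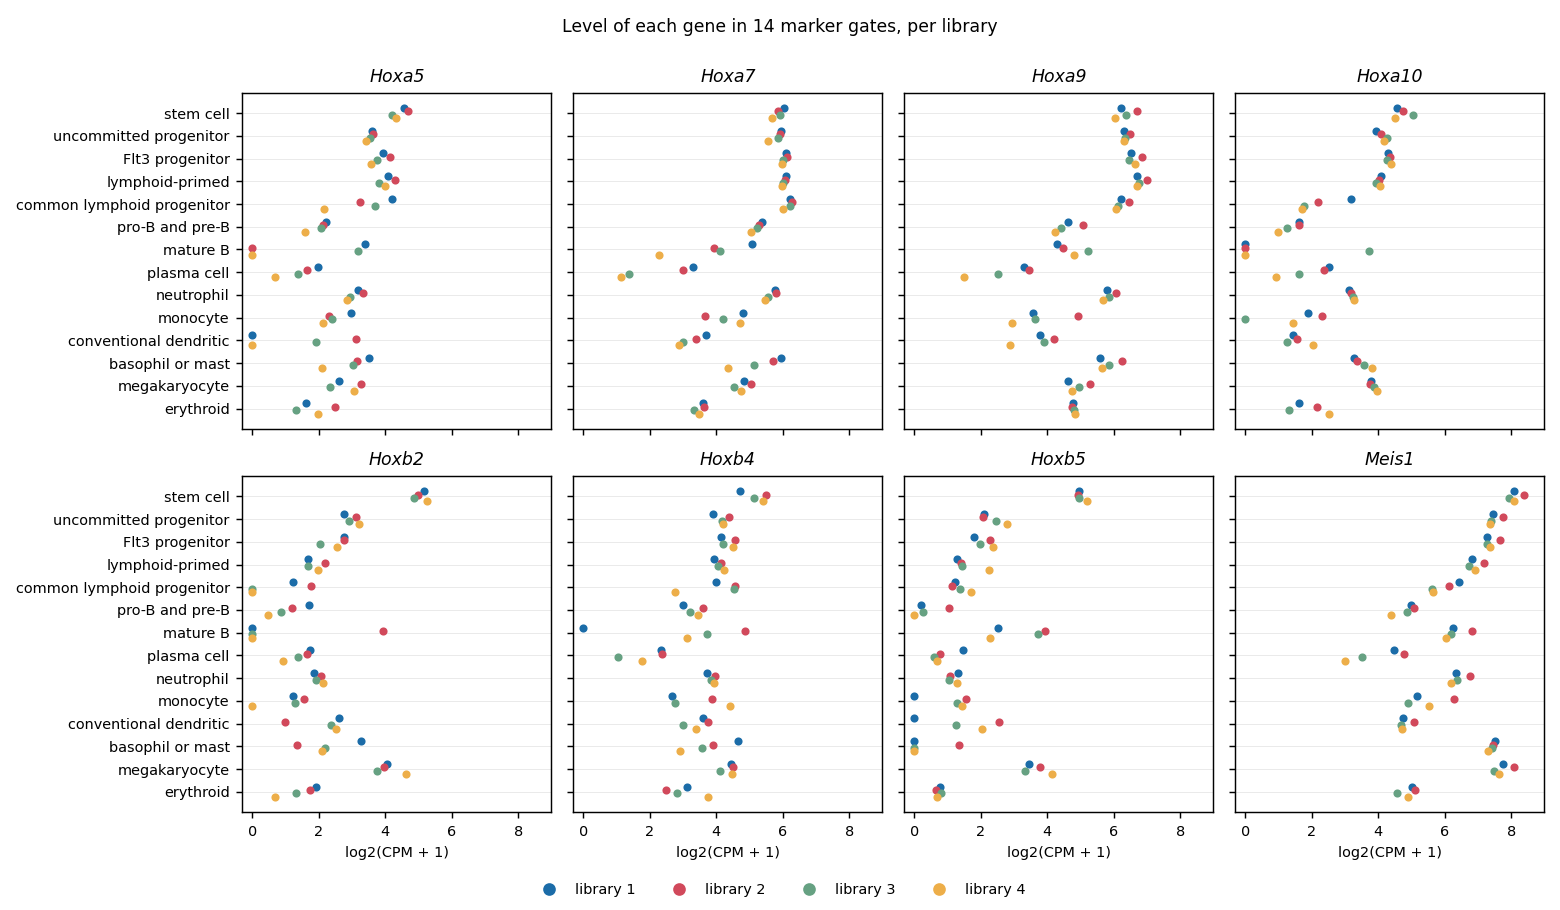
Level of each of the 8 genes as log2(CPM + 1) (horizontal axis) in the 14 gates (vertical axis), with 1 point per library. Hoxb5 and Hoxb2 drop steeply from the stem cell gate to all other gates except megakaryocyte progenitors, whereas Hoxa9 is higher in lymphoid-primed progenitors than in stem cells in 4 of 4 libraries.

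Hoxb5, which has been used as a reporter gene to mark long-term repopulating stem cells, showed the steepest gradient of the 8. In the stem cell gate its level was 30.3, 29.2, 30.1 and 36.0 CPM in libraries 1 to 4, and in uncommitted progenitors it was 3.24, 3.22, 4.51 and 5.87 CPM. The lowest stem cell library thus stood well above the highest uncommitted library. Lymphoid-primed progenitors had 1.45, 1.63, 1.73 and 3.75 CPM, and erythroid progenitors held 1 UMI of Hoxb5 in each library. Megakaryocyte progenitors were the exception among the committed gates with many cells, at 10.0, 12.8, 9.11 and 16.6 CPM. Their 4 values lay below all 4 stem cell values and above all 4 uncommitted values. Mature B cells followed at a median of 8.40 CPM from 1 to 3 UMIs in a library. The 204 cells of that gate also held 172 to 289 CPM of Kit and Cd34 together, which plasma cells held at 27.8 to 82.8 CPM, and the part of this in the Hoxb5 value was not tested.

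Hoxb2, known for its part in patterning the hindbrain, had much the same order. The stem cell gate held 35.0, 30.5, 28.2 and 37.1 CPM and the megakaryocyte gate 15.7, 14.5, 12.6 and 23.4 CPM. Uncommitted progenitors held 5.74, 7.76, 6.54 and 8.28 CPM. These 3 gates were separated from one another in every library, and no other of the 14 gates reached a median above that of uncommitted progenitors. In erythroid progenitors the 4 libraries had 4, 4, 2 and 1 UMIs. The antisense gene Hoxb3os covers 953 of the 3488 exonic bases of Hoxb2 (27.3%), and the strand setting of the authors' counting is not given in the sources used here. If reads were counted without strand, transcripts of both genes cannot be told apart in that stretch. Counted under its own name, Hoxb3os was at 96 UMIs in stem cells and 270 in uncommitted progenitors, against 447 and 252 UMIs for Hoxb2.

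Hoxb4, whose forced expression is known to expand stem cells in culture, declined less. It was at 25.5, 44.3, 34.2 and 41.3 CPM in stem cells and at 13.97, 19.9, 17.1 and 17.5 CPM in uncommitted progenitors. Library 1 was the lowest of the 4 in stem cells, and its 25.5 CPM still lay above the highest megakaryocyte value of 21.8 CPM. From megakaryocyte progenitors down, most gates overlapped, and neutrophil precursors still held 12.1 to 14.5 CPM. Erythroid progenitors were at 7.64, 4.59, 6.02 and 12.4 CPM and plasma cells at 1.04 to 4.21 CPM.

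Hoxa10, a gene known to influence megakaryocyte and myeloid differentiation, had 22.8, 25.8, 32.3 and 21.7 CPM in stem cells. The gate next in order, Flt3 progenitors, had 18.3 to 20.0 CPM, and uncommitted progenitors had 14.2, 15.9, 18.4 and 16.9 CPM. The separation of stem cells from Flt3 progenitors was small, with 21.7 CPM on one side and 20.0 CPM on the other. Hoxa10 then fell away along the lymphoid path, with 2 to 6 UMIs per library in common lymphoid progenitors and a median of 1.74 CPM in pro-B and pre-B cells. Hoxa5, known for its part in forming the lung and airways, was at 22.8, 24.8, 17.5 and 18.9 CPM in stem cells, 11.1, 11.4, 10.6 and 9.79 CPM in uncommitted progenitors and 15.96, 18.8, 12.9 and 14.998 CPM in lymphoid-primed progenitors. Its uncommitted values lay below those of both other gates in every library.

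Hoxa9, a known driver of leukemia together with Meis1 and needed for normal lymphoid and stem cell output, was at similar levels in stem cells and uncommitted progenitors and higher in lymphoid-primed progenitors. It was at 73.2, 103, 81.4 and 65.1 CPM in stem cells and 78.0, 88.8, 79.1 and 78.5 CPM in uncommitted progenitors, which overlapped. In lymphoid-primed progenitors it was at 102, 128, 108 and 103 CPM, higher than in stem cells in each of the 4 libraries. Neutrophil precursors had 54.4, 66.3, 56.9 and 50.5 CPM, and erythroid progenitors 26.4, 25.8, 27.1 and 27.3 CPM. Hoxa7, found activated with Hoxa9 and Meis1 in mouse myeloid leukemias, was highest in common lymphoid progenitors at 63.0 to 76.4 CPM among the 14 gates with at least 20 cells per library. The plasmacytoid dendritic cell gate, with 14 to 19 cells per library, had Hoxa7 at 50.7 to 99.1 CPM from 12 to 19 UMIs and Hoxa9 at 84.5 to 158 CPM from 18 to 28 UMIs. In stem cells Hoxa7 was at 64.8, 57.2, 59.1 and 50.6 CPM and in uncommitted progenitors at 60.8, 59.0, 57.3 and 45.8 CPM, again overlapping. It reached its lowest levels in erythroid progenitors, conventional dendritic cells and plasma cells, with medians of 10.6, 8.26 and 4.29 CPM. The antisense gene Hoxaas3 covers 586 of 2876 exonic bases of Hoxa7 (20.4%), with the same limit on strand.

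Meis1, the TALE cofactor that is known to be needed for stem cell maintenance and for megakaryocyte formation, was at 273, 332, 243 and 268 CPM in stem cells. Megakaryocyte progenitors had 217, 273, 179 and 198 CPM, lower than stem cells in each library although the ranges overlapped. Uncommitted progenitors had 174, 214, 167 and 164 CPM, and basophil or mast cell progenitors 156 to 181 CPM. The gene was also held in lymphoid-primed progenitors at 111, 145, 106 and 119 CPM and in neutrophil precursors at 79.8, 107, 81.8 and 72.5 CPM. Erythroid progenitors stood far from megakaryocyte progenitors, at 31.3, 33.3, 22.6 and 29.0 CPM. The macrophage gate, with 12 to 63 cells per library, had Meis1 at 194 to 248 CPM. That gate also held Kit and Cd34 at 437 to 463 CPM and the stem cell markers at 381 to 476 CPM, and their part in its Meis1 level was not tested. Gm37818, on the same strand, covers 1029 of the 10532 exonic bases of Meis1 (9.77%). The antisense gene Gm16140 covers 896 of them (8.51%).

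Stem cells were set against uncommitted progenitors within each library as the log2 ratio of CPM plus 1, a scale that understates the ratio of low genes. A gene was called higher or lower when the ratio reached 1.5-fold in the same direction in all 4 libraries, a limit of size that involves no test, and a minimum mean level of 5 CPM over both gates was required. Hoxb5, Hoxb2, Hoxb4 and Hoxa5 were called higher, which is 4 of 8 members, beside 11.8% of the 10008 genes in either direction (7.72% higher and 4.04% lower in stem cells). The log2 ratio was 2.67 for Hoxb5 (median, range 2.43 to 2.88), 2.00 for Hoxb2 (1.85 to 2.42), 1.04 for Hoxb4 (0.82 to 1.20) and 0.93 for Hoxa5 (0.67 to 1.06). Hoxa10 and Meis1 were higher in 4 of 4 libraries without reaching the size in all, at 0.65 (0.35 to 0.78) and 0.64 (0.54 to 0.70). Hoxa7 and Hoxa9 stood at 0.07 and -0.02, with ranges of -0.04 to 0.14 and -0.27 to 0.22. The median over the 8 was 0.79, beside 0.03 over all genes. Hoxb5, at a median of 3.87 CPM in uncommitted progenitors, passed the minimum level through the stem cell gate. Only a higher call was thus open to it.

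The call of Hoxa5 was lost with a pseudocount of 5 CPM (0.74), with at most 5% mitochondrial UMIs (0.94) and after thinning to 5000 UMIs (1.10). It was also lost with a stem gate drawn without Hlf and Mecom (0.62) and with 4 markers required (0.61). That last setting left the uncommitted gate at its 3 markers and let cells that left other gates enter it. The uncommitted gate then held 783 to 1471 cells per library, in place of 485 to 803. Stem cells differed from uncommitted progenitors in cycle state, with 60.8% against 11.6% resting cells. Those have at most 1 of 8 cycle markers and at most 1 of 6 S phase markers. Between resting cells of both gates, Hoxb2 (2.04) and Hoxb5 (2.41) kept the call, which left 2 members. Hoxa5 (0.78) and Hoxb4 (0.90) lost it. Resting uncommitted progenitors held 1 to 9 UMIs of Hoxb2 and 0 to 7 of Hoxb5 per library, so the kept calls rest on few UMIs. Between cycling cells 4 members were called, with 18 to 62 stem cells per library. The share of all genes called in these splits is not given here. Hoxb4 also lost its call with 4 markers required (1.10), which left 18 to 100 stem cells per library. Without library 3 Meis1 was called, and without library 4 Hoxa10 was.

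**Figure D2:**
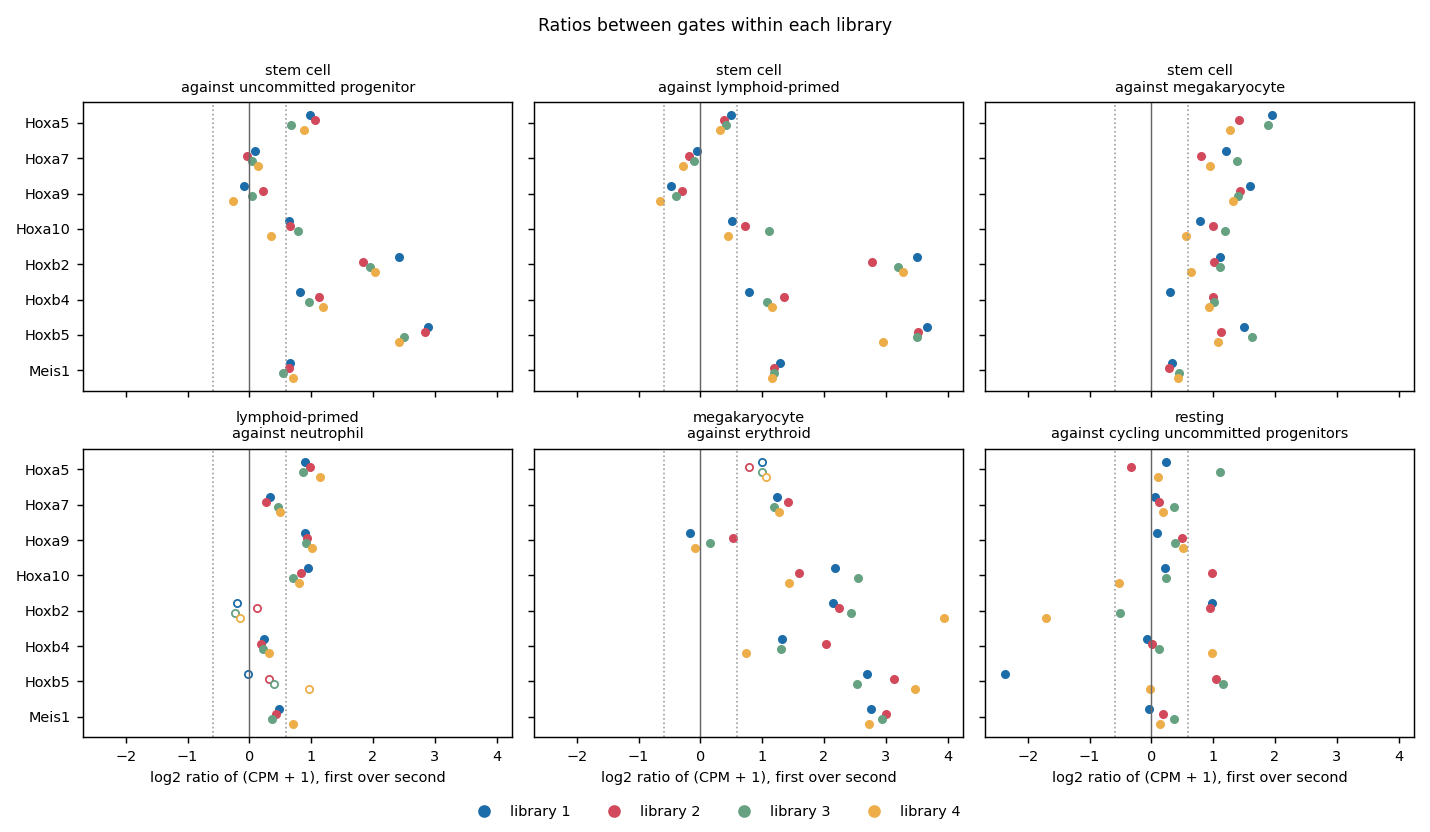
Log2 ratio of CPM plus 1 between the named pairs of gates (horizontal axis) for each gene (vertical axis), 1 point per library; dotted lines mark 1.5-fold and open points are genes under 5 CPM. Hoxb5 and Hoxb2 lie far to the right in both comparisons of stem cells with early progenitors, whereas Hoxa7 lies close to 0 in both and Hoxa9 lies around 0 against uncommitted and to the left of 0 against lymphoid-primed progenitors.

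The paralog group 5 pair thus parted at this step. Hoxb5 had 433 UMIs in stem cells and 146 in uncommitted progenitors, an 8.04-fold ratio of pooled CPM (95% counting interval 6.65 to 9.77). Hoxa5 had 275 and 392 UMIs, a 1.90-fold ratio (1.62 to 2.22). The intervals do not overlap, and in each of the 4 libraries the log2 ratio of Hoxb5 was above that of Hoxa5.

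The whole HOXA and HOXB clusters were then read in the same way, for every gene with at least 20 UMIs in both gates together, 8 in each cluster. In the HOXB cluster all 8 had a pooled ratio whose interval lay above 1, from 2.26 for Hoxb4 to 43.2 for Hoxb8. Hoxb8, which can hold myeloid progenitors undifferentiated when forced, had 303 UMIs in stem cells and 19 in uncommitted progenitors (27.2 to 72.8). Hoxb9 followed at 33.2 (18.4 to 65.7) and Hoxb7 at 21.7 (9.86 to 56.4), the latter from 56 and 7 UMIs. Hoxb7, Hoxb8 and Hoxb9 had under 20 UMIs in uncommitted progenitors (7, 19 and 12). They reached 20 UMIs through the stem cell gate, a way of entry that favours high ratios. Hoxb6 was at 9.60, and Hoxb3, next to Hoxb2 and Hoxb4 in the cluster, at 4.201. In the HOXA cluster the interval lay above 1 for 5 of 8 genes, Hoxa2 (2.61), Hoxa3 (2.13), Hoxa5, Hoxa6 (1.61) and Hoxa10 (1.54). It included 1 for Hoxa4 (1.15, from 20 and 47 UMIs), Hoxa7 (0.986) and Hoxa9 (0.967). The ranges of both clusters overlap, since Hoxb4 is under Hoxa2. Hoxa2 had only 25 and 26 UMIs, was under the minimum level, and had log2 ratios of -0.26, 1.66, -0.04 and 0.74 in libraries 1 to 4. Hoxa4, Hoxa6, Hoxb6 and Hoxb7 were also under the minimum level. Genes of the HOXC cluster had 133 UMIs in both gates together and genes of the HOXD cluster 0. The intervals cover counting error only and not the spread between libraries.

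**Figure D3:**
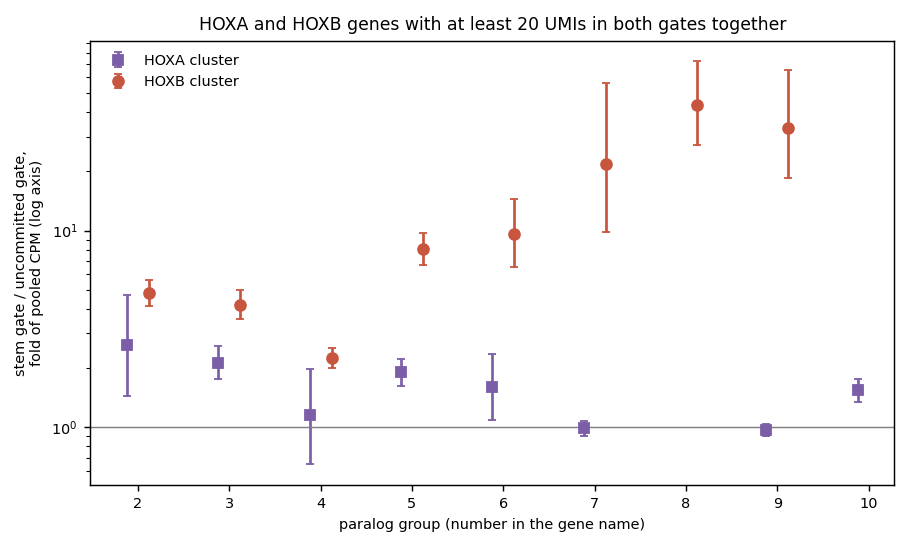
Ratio of pooled CPM in the stem cell gate to that in uncommitted progenitors (vertical log axis) by paralog group (horizontal axis), with 95% counting intervals, for genes with at least 20 UMIs. HOXB genes of groups 5 to 9 lie between 8.04 and 43.2, and no HOXA gene lies above 2.61. Hoxb7, Hoxb8 and Hoxb9 had under 20 UMIs in uncommitted progenitors.

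Against lymphoid-primed progenitors, Hoxb5, Hoxb2, Meis1 and Hoxb4 were called higher in stem cells, 4 of 8 members beside 15.2% of 10069 genes in either direction (10.3% higher and 4.94% lower). The log2 ratio of Hoxb5 was 3.52 (2.96 to 3.67) and that of Hoxb2 3.24 (2.78 to 3.503). The stem cells are the same as in the comparison with uncommitted progenitors. In lymphoid-primed progenitors Hoxb5 (1.45 to 3.75 CPM) and Hoxb2 (2.18 to 3.58 CPM) were under 5 CPM in every library. They passed the minimum level through the stem cell gate, so only a higher call was open to them. Meis1 was at 1.19 (1.17 to 1.29), with the narrowest range of the 8, and Hoxb4 at 1.12 (0.79 to 1.35). Hoxa9 ran the other way at -0.44 (-0.65 to -0.31), lower in stem cells in 4 of 4 libraries and not called. Between resting cells of both gates the call of Hoxb4 was lost (0.76), as it was with 4 markers required (1.20), and Hoxa9 was at -0.74.

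Against megakaryocyte progenitors, 5 members were called higher in stem cells, beside 17.9% of 9934 genes in either direction (11.4% higher and 6.52% lower). They were Hoxa5 (1.65), Hoxa9 (1.41), Hoxb5 (1.32), Hoxa7 (1.08) and Hoxb2 (1.06). Hoxa9 thus separated these gates (1.31 to 1.60 in the libraries) but not stem cells from uncommitted progenitors. Hoxa10 (0.89), Hoxb4 (0.96) and Meis1 (0.38) were higher in 4 of 4 libraries and not called. Without library 1 Hoxb4 was called, and without library 4 Hoxa10 was, so that leaving out either library gave 6 members. Hoxb2 lost its call with a pseudocount of 5 CPM (0.89), and Hoxa7 (0.44) and Hoxb5 (0.89) between cycling cells. With a stem gate drawn without Hlf and Mecom, Hoxa7 (0.85) and Hoxa9 (1.15) lost the call and 3 members remained. The 2 gates differed in depth, with median counts of 8668 and 17795.5 UMIs per cell, and thinned to 5000 UMIs 5 members were called.

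Between megakaryocyte and erythroid progenitors, which are known to arise from a shared precursor, 7 of 8 members passed the minimum level and 6 were called higher in megakaryocyte progenitors, beside 16.3% of 9220 genes in either direction (11.7% higher and 4.58% lower). Meis1 had a log2 ratio of 2.84 (2.73 to 3.00), Hoxb4 1.31 (0.73 to 2.03) and Hoxa7 1.25 (1.19 to 1.41). In the 60 to 75 erythroid cells per library Meis1 had 30 to 58 UMIs, Hoxb4 only 8 to 21 and Hoxa7 only 12 to 20. The other 3 called members rested on the fewest UMIs there. Hoxb5 had 34 to 78 UMIs against 1, Hoxb2 42 to 110 against 1 to 4 and Hoxa10 36 to 68 against 2 to 8. In erythroid progenitors their highest values were 0.753, 2.78 and 4.74 CPM, under the minimum of 5 CPM. These members passed it through the megakaryocyte gate, so only a higher call was open to them. Hoxa9 was the exception, with a ratio of 0.03 (-0.16 to 0.53) and similar levels in both gates. Hoxa5, below the minimum level, had 15 to 34 UMIs against 2 to 8. The call of Hoxa10 was lost with 4 markers required (1.496) and after thinning to 5000 UMIs (2.85), and that of Hoxa7 without the highest 8% of UMI counts (1.27).

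Between lymphoid-primed progenitors and neutrophil precursors, 6 of 8 members passed the minimum level, and Hoxa5 (0.94), Hoxa9 (0.92) and Hoxa10 (0.82) were called higher in lymphoid-primed progenitors, beside 7.78% of 9500 genes in either direction (5.18% higher and 2.6% lower). The 3 called members all belong to the HOXA cluster. Meis1 (0.46), Hoxa7 (0.39) and Hoxb4 (0.22) were higher in 4 of 4 libraries and not called, and Hoxb2 and Hoxb5 were under the minimum level in these gates. The call of Hoxa10 was lost with a pseudocount of 5 CPM (0.62) and between cycling cells (0.78).

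Resting and cycling cells were also compared within gates. Between resting and cycling uncommitted progenitors 0 of 8 members were called, beside 8.52% of 9697 genes (2.25% higher and 6.27% lower in resting cells), with 56 to 104 resting and 221 to 411 cycling cells per library. Hoxa9 was higher in resting cells in 4 of 4 libraries at a log2 ratio of 0.44 (0.09 to 0.51), and Hoxa7 at 0.16 (0.06 to 0.37). In lymphoid-primed progenitors Hoxa9 was at 163 CPM in resting cells (127 to 187) and 97.6 CPM in cycling cells (91.1 to 117), with no overlap. In stem cells Hoxb5 was at 36.5 CPM in resting cells (32.3 to 45.0) and 26.7 CPM in cycling cells (18.2 to 29.9), again with no overlap. The share of all genes without overlap in these splits is not given here, so neither case is set against a background. Only 18 to 62 stem cells per library were cycling, and 9 to 25 UMIs stand behind the Hoxb5 values of those cells. Hoxa7 in stem cells was at 61.5 CPM in resting cells (52.0 to 73.4) and 37.3 CPM in cycling cells (34.4 to 53.2), which overlapped. The same split left Hoxb4 at 38.1 and 36.7 CPM.

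**Figure D4:**
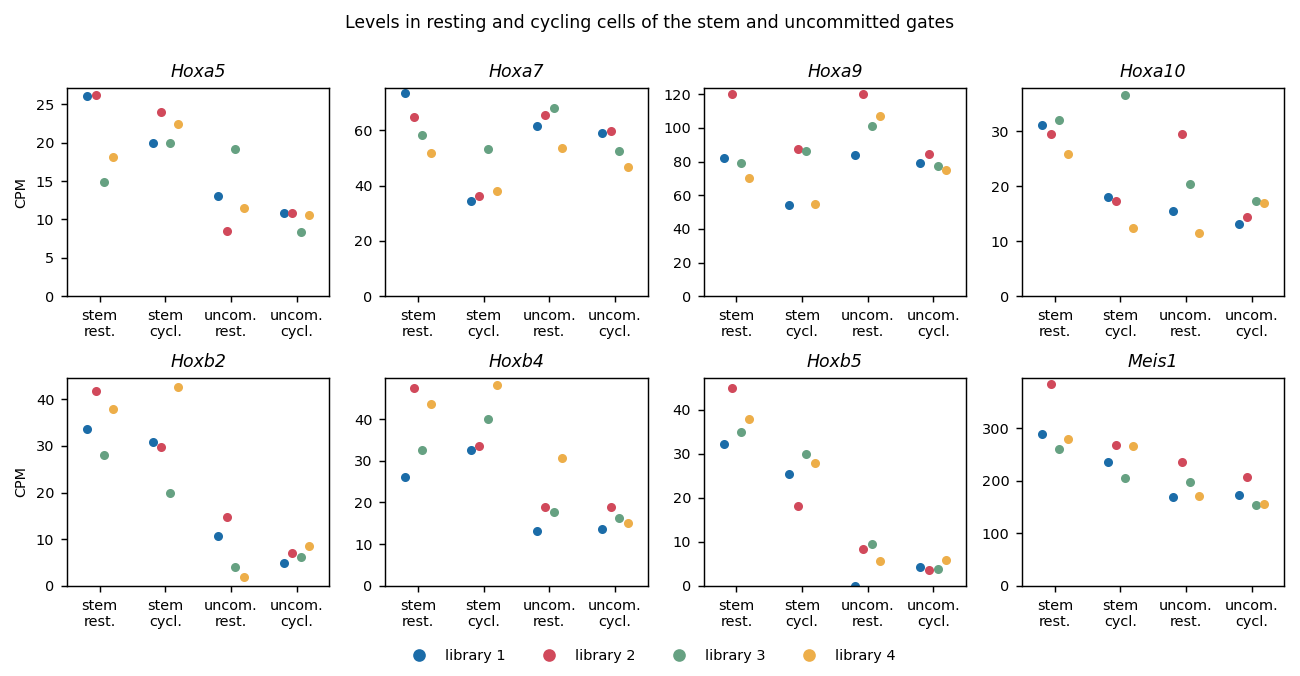
CPM of each gene (vertical axis, from 0) in resting and cycling cells of the stem cell and uncommitted gates, 1 point per library. Hoxb5 and Hoxb2 in cycling stem cells stay above all their values in uncommitted progenitors, resting or cycling.

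Per cell, detection was compared after thinning each cell to 5000 UMIs, with plasma cells as a mature gate for the background. Whether genes in general are also detected less often in plasma cells at this depth was not tested. Hoxb5 had a UMI in 14.8% of stem cells (95% exact binomial interval 12.9 to 16.8), 1.69% of uncommitted progenitors (1.24 to 2.26), 6.35% of megakaryocyte progenitors and 0.216% of plasma cells. Unthinned, the median shares over libraries were 23.8%, 5.06%, 17.9% and 1.20%, at median depths of 8668, 13123.5, 17795.5 and 17307 UMIs per cell. The stem cell gate was thus the shallowest of the 4 and had the highest share on both scales. Thinned, Hoxb2 was in 15.2% of stem cells, 4.10% of uncommitted progenitors and 0.433% of plasma cells, and Hoxb4 in 17.1%, 8.20% and 1.08%. Hoxa9 was in 34.0% of stem cells, 32.2% of uncommitted progenitors and 42.7% of lymphoid-primed progenitors, against 1.95% of plasma cells. Meis1 was in 73.5% of stem cells, 55.7% of uncommitted progenitors and 4.11% of plasma cells. Thinning left out 30 stem cells and 4 uncommitted progenitors that were too shallow.

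**Figure D5:**
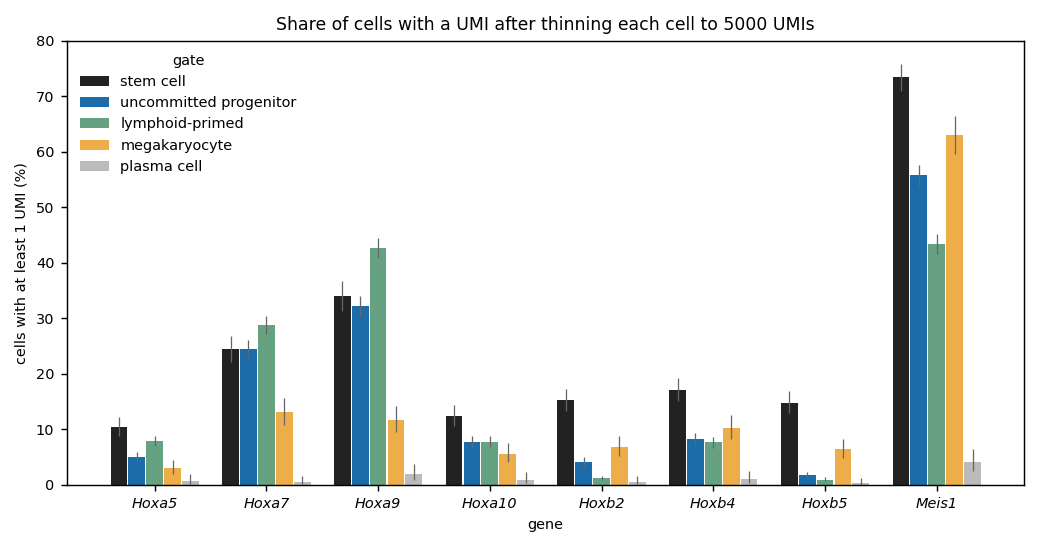
Share of cells with at least 1 UMI of each gene (vertical axis, percent) after thinning each cell to 5000 UMIs, in 5 gates; bars pool the libraries and lines are 95% exact binomial intervals. Hoxb5 is in 14.8% of stem cells and 1.69% of uncommitted progenitors, and plasma cells are lowest for all 8 genes.

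At that depth a stem cell had UMIs of a median of 2 of the 8 members and an uncommitted progenitor of 1. At least 4 members were seen together in 10.3% of stem cells (range over libraries 8.70% to 14.3%), 1.85% of uncommitted progenitors (1.44% to 2.31%) and 2.56% of lymphoid-primed progenitors. At least 2 members were seen in 65.8% of stem cells and 1.22% of plasma cells. With at least 4, the 4 stem cell values lay above all values of both progenitor gates. Within the stem cell gate, cells with a Hoxb5 UMI had a Hoxb2 UMI in 18.5% of cases (3.33% to 21.4%) and cells without one in 14.97% (11.4% to 19.3%), so the ranges overlapped. The stem cell gate was also split by a UMI of Vwf, a gene known to mark platelet-biased stem cells. Cells with it (584, median 9638.5 UMIs) and without it (739, median 8066 UMIs) differed in Hoxb2 by a log2 ratio of 0.64 (-0.03 to 0.93) and in Hoxa9 by -0.31 (-0.69 to -0.04). Only Hoxa9 among the 8 had the same sign in all 4 libraries. The share of all genes with the same sign in all 4 is not given here, so this is not set against a background.

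The libraries themselves differed for some members. Library 2 had the highest Meis1 level in 12 of 14 gates, the highest Hoxa9 level in 12 and the highest Hoxb4 level in 10. In the stem cell gate the median gene of library 2 stood 0.16 above the other libraries on the log2 scale. Library 4 had the lowest Hoxa7 level in 11 of 14 gates. Over all kept cells library 4 also had Hoxb2 at 13.7 CPM and Hoxb5 at 10.996 CPM, where the other 3 libraries had 7.80 to 9.88 and 5.54 to 6.46 CPM. Its stem cell gate was the largest share of any library, 5.96%, and within that gate its Hoxb2 and Hoxb5 levels were 37.1 and 36.0 CPM, against 28.2 to 35.0 and 29.2 to 30.3 CPM in the others. Hoxb5 was also highest in library 4 in uncommitted progenitors (5.87 CPM, against 3.22 to 4.51 in the others). The same held in lymphoid-primed progenitors (3.75 CPM, against 1.45 to 1.73). These values rest on 32 to 40 and 15 to 27 UMIs per library. Over the 14 gates, library 4 had the highest Hoxb5 level in 6 and the lowest in 2. For Hoxb2 it was highest in 4 gates and lowest in 4. Whether these differences follow genotype cannot be told apart from other differences between libraries.

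The other genes of the pathway were read as lists. The other TALE genes are not described in full here, and no count is given for them. The HOX partner gene Pbx3 was called higher in stem cells than in uncommitted progenitors (1.41, 39.1 against 14.8 CPM). It was also called higher than in lymphoid-primed progenitors, at 2.54. Tgif1, a TALE repressor, was higher in stem cells than in megakaryocyte progenitors (1.80).

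Of the 19 genes of the MLL complex and its activators, which maintain HOX transcription, 16 passed the minimum level against uncommitted progenitors. The only call, beside 11.8% of all genes, was Mllt3, a subunit of the elongation machinery known to support stem cell maintenance, at 286 against 31.5 CPM (3.11, range 2.88 to 3.27). It was also called against lymphoid-primed (3.61) and megakaryocyte progenitors (2.56). Against megakaryocyte progenitors 3 of 16 were called higher and 2 lower, beside 11.4% and 6.52% of all genes. The higher ones were Mllt3, Kmt2a, the MLL methyltransferase itself (0.91), and Aff4, a scaffold of the elongation machinery (0.70). The lower ones were Dot1l, the H3K79 methyltransferase (-0.74), and Dpy30, a core subunit of the MLL complexes (-0.90). The median of the list against uncommitted progenitors was 0.05, beside 0.03 over all genes.

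Of 16 genes of Polycomb, which represses HOX genes, all passed the minimum level against uncommitted progenitors, 2 were called higher in stem cells and 1 lower, beside 7.72% and 4.04% of all genes. Ezh1 (1.05) and Cbx7 (0.79) were higher and Ezh2, the alternative methyltransferase subunit to Ezh1, was lower (-1.17, 92.7 against 193 CPM). Ezh2 was also lower in resting than in cycling uncommitted progenitors (-1.92), and the part of cycle state in its stem cell ratio was not tested. Of 12 genes known as targets of HOXA9 and MEIS1, 1 was called higher in stem cells, Camk2d (1.02), and 1 lower, the cell cycle kinase gene Cdk6 (-1.40), beside the same shares of all genes. Against megakaryocyte progenitors the same list had 5 called higher, among them Camk2d (2.36) and the kinase gene Pim1 (1.96), and 3 lower, Cdk6 (-1.23), Mef2c (-0.92) and Bcl2 (-0.73), beside 11.4% and 6.52% of all genes. Among the noncoding RNAs of the HOX loci, 0 of the 3 that passed the minimum level were called against uncommitted progenitors.

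Genes most like each member were ranked by the lowest of the 4 libraries' Pearson correlations of log2(CPM + 1) over the 14 gates, among 7409 genes. The gates share a library and differ in depth, so these are descriptions. Meis1 was matched most closely by Angpt1, the ligand of the Tie2 receptor (0.95), Ctla2a (0.93) and Dapp1 (0.92). Hoxa9 was closest to Sirt3 (0.92) and to Sox4 (0.91), a transcription factor gene active in early lymphoid cells. Hoxb5 was closest to Uba7 (0.80) and had the endothelial adhesion gene Esam (0.75) among its 5 nearest. Hoxb4 had its cluster neighbour Hoxb3 in second place (0.75), and Hoxa5 was closest to Gata3 (0.83). Among the 28 pairs of members, Hoxa7 and Hoxa9 were most alike, with a median correlation of 0.87 (0.79 to 0.94), and Hoxa5 and Hoxb2 least, at 0.20 (0.14 to 0.59). Hoxb2 with Hoxb5 stood at 0.64 (0.51 to 0.85).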

How the data were processed

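UMI counts, whole numbers for each gene and barcode, were deposited by the authors as 1 aggregated matrix. Per the file headers it comes from Cell Ranger 6.1.2, and the submitters' processing notes name mm10. The 4 libraries had 112027160 to 144385614 UMIs over 44151 barcodes. Barcodes under 500 genes or above 10% mitochondrial UMIs were removed. No doublet caller was run, and an alternative left out the highest 8% of UMI counts per library. UMIs were summed per library and gate and scaled to CPM. Ratios were log2 of CPM plus 1 per library, with a minimum of 5 CPM averaged over both sides and a size limit of 1.5-fold in 4 of 4 libraries. Resting cells had at most 1 of 8 cycle markers and at most 1 of 6 S phase markers, and cycling cells at least 4 of 8 cycle markers. Thinning to 5000 UMIs used seed 1. Intervals (95%, exact Poisson or binomial) cover counting error only. Named genes were the 8 members, the 5 genes most like each, and list genes called in a comparison. Of the members, 6 matched a promoter entry by symbol. Some genes and sequences are not reported here. The members, lists and gate limits were chosen with earlier results of these data known. The ratio script was tested on simulated data. Versions were Python 3.11.15, NumPy 2.4.6, pandas 2.3.3, SciPy 1.17.1 and matplotlib 3.10.9.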

Additional observations from a re-analysis of the deposited data

How the results depend on the processing

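No paired analysis was possible because the barcode suffixes are not tied to the labelled samples, which concerns mutant against wild type alone, since gates were compared within each library. For the same reason no edgeR or DESeq2 fit of mutant against wild type, with or without a replicate block or a left-out replicate, was run. A minimum of 20 CPM in place of 5 left 1 member called against uncommitted progenitors (from 4), 2 against lymphoid-primed progenitors (from 4), 1 between lymphoid-primed progenitors and neutrophil precursors (from 3) and 1 between megakaryocyte and erythroid progenitors (from 6), since fewer members are tested. Resting cells on both sides left 2 against uncommitted progenitors, and a stem gate without Hlf and Mecom left 3 against megakaryocyte progenitors (from 5). The cause was not tested for either. These 2 alternatives, cycling cells on both sides and uncommitted progenitors without a Flt3 or Dntt UMI were chosen after seeing the data. Leaving out 1 library at a time gave 4 to 5, 4 to 4 and 5 to 6 members called for stem cells against uncommitted, lymphoid-primed and megakaryocyte progenitors, 3 to 3 for lymphoid-primed against neutrophil, 6 to 7 for megakaryocyte against erythroid and 0 to 0 for resting against cycling cells. Of 664 log2 ratios of members recomputed under all alternatives, 566 moved by less than the spread over libraries and 98 moved by more. Of the 664, 0 changed sign after a call and 32 changed their call. The 32 leave out calls lost only because a member fell under a minimum level, so the 20 CPM minimum adds 0 to them. The share of all genes called under each alternative is not given here. Hoxb5 and Hoxb2 reached 1.5-fold in every library against uncommitted and lymphoid-primed progenitors under each alternative that was run. Both fall under the 20 CPM minimum in some comparisons, however. Among resting cells both had at most 9 UMIs per library in the uncommitted and lymphoid-primed gates. The mature B and macrophage gates held 68619 to 322617 UMIs per library, so the levels of most members rest on few UMIs there.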

Other observations

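The 22664 kept cells that met no gate had 211 CPM of Meis1 (median of the 4 libraries), 76.7 CPM of Hoxa9 and 9.98 CPM of Hoxb5, the latter between the stem cell and uncommitted gates. A small set of 43 cells met the stem cell and the megakaryocyte gate together, at median depths of 20558.5 to 31160 UMIs per cell in the 4 libraries, so mixed droplets cannot be told apart from cells with both programs. Hotairm1, a noncoding RNA of the HOXA locus, was under the minimum level, with 61 UMIs in stem cells and 55 in uncommitted progenitors although the latter gate held more cells (2662 against 1323). The TALE genes Meis2 and Meis3 were likewise under that level, with 8 to 19 and 4 to 11 UMIs per library in stem cells and 0 to 1 and 0 to 2 in uncommitted progenitors.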
